A study of Saccharomyces cerevisiae with 8 samples.

Results

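Loss of RAD27 was compared with wild type in budding yeast, Saccharomyces cerevisiae, held at 37 °C, in 4 of the 8 libraries of the series. The samples were chosen by their labels, 2 libraries of wild type at 37 °C against 2 of the rad27 knockout at 37 °C. All cells had grown overnight at 30 °C in YPD, a rich glucose medium, and were then diluted into fresh YPD and kept for 4 h at 37 °C before RNA was taken with Trizol and made into mRNA libraries. The other 4 libraries, wild type and knockout kept for 4 h at 30 °C, serve only to show where the effect at 37 °C differs. The series asked how gene expression changes when Okazaki fragments are not matured properly. The labels give neither the strain background, the marker used for the deletion nor the number of clones, and they do not say whether the replicates were separate cultures.

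RAD27 encodes the yeast flap endonuclease FEN1. On the lagging strand, DNA polymerase delta with its sliding clamp PCNA runs into the 5′ end of the next Okazaki fragment and lifts it as a flap, Rad27 cuts the flap, and DNA ligase I, the product of CDC9, seals the nick. In budding yeast, rad27 mutants are known to grow poorly at 37 °C and to depend on recombination and on the checkpoint kinases Mec1, Rad53 and Dun1, which raise the supply of deoxynucleotides when replication is disturbed.

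The libraries held 5182337 and 5194263 counts in wild type and 4913216 and 5331479 in the knockout at 37 °C, and 5667 genes passed the count minimum and were tested. Levels are given as CPM, the read count of a gene relative to the TMM-scaled size of its library as edgeR gives it, for replicates 1 and 2 in that order, and differences as log2 fold changes of knockout over wild type ± SE. Every adjusted p comes from edgeR's quasi-likelihood test adjusted over all tested genes and called below 0.05. With 2 libraries a group, each p measures only the spread between these samples, which may be technical.

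The pair of knockout libraries at 37 °C was the least alike of the 4 pairs. Chi-square per degree of freedom between replicates was 8.70 there and 1.85 in wild type at 37 °C, where counting error alone gives 1. Of the genes that averaged 10 CPM or more in the knockout at 37 °C, 34 differed more than 2-fold between its replicates, and all 34 were higher in replicate 2. Among them were FBP1, PCK1, JEN1 and ICL1, genes for growth on carbon sources other than glucose, which stood at 8.97 and 47.7 CPM for FBP1, 48.0 and 181 CPM for PCK1, 28.6 and 83.3 CPM for JEN1 and 56.7 and 159.9 CPM for ICL1. Of these 34 genes, 32 were called higher in the knockout at 37 °C and 0 lower. Values that move more than 1.5-fold when either knockout library is left out are therefore given with and without it.

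**Figure D1:**
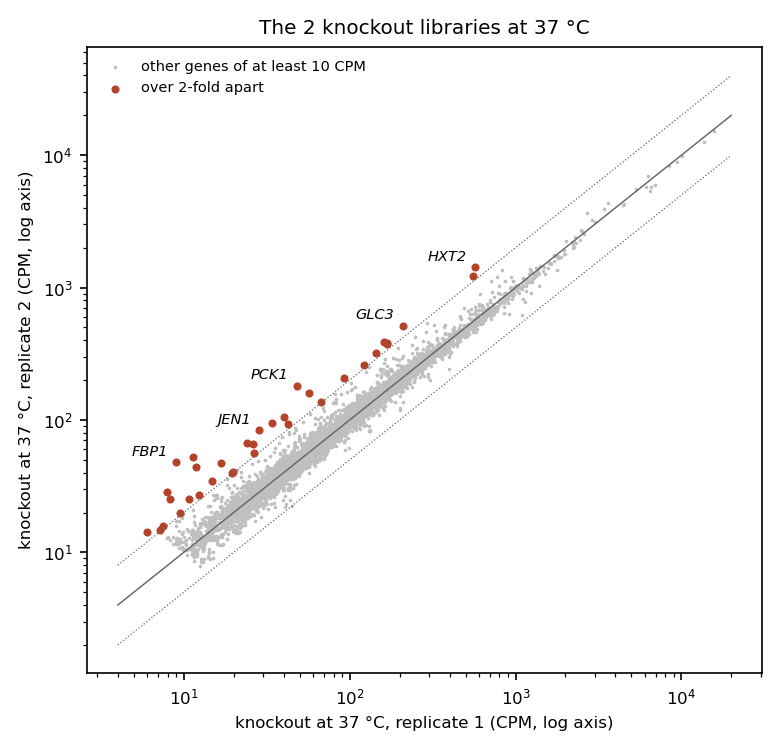
Level of each gene with a mean of at least 10 CPM in knockout replicate 1 (x axis) against knockout replicate 2 (y axis) at 37 °C, in CPM on log axes, with equality as a solid line and 2-fold differences as dotted lines. The 34 red points, FBP1, PCK1 and JEN1 among them, all lie above the upper dotted line.

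RAD27 itself (chromosome XI, 224727 to 225875, minus strand, in the R64 genome) had 511 and 479 counts in wild type at 37 °C and 0 in each knockout library. Set against a floor of 3 counts for both libraries together, it was at least 355-fold lower. APN1, the neighbour that encodes an endonuclease of base excision repair, stood at 95.5 and 89.1 CPM in wild type and 44.8 and 51.0 CPM in the knockout (-0.94 ± 0.10, adjusted p = 6.1e-06). ABF1, the neighbour on the other side, for a general regulatory factor, stood at 138 and 141 CPM in wild type and 115 and 91.3 CPM in the knockout (-0.44 ± 0.097, adjusted p = 0.00185). PRR1, a protein kinase gene, and KTI12, the next genes out, did not pass, at 0.073 ± 0.087 and -0.14 ± 0.095. YCL021W-A (chromosome III, 83620 to 83997, plus strand), an open reading frame of unknown function, had 128 and 115 counts in wild type and 0 in each knockout library, at least 87.2-fold lower by the same floor. Whether the knockout strain still carries its locus is not in the labels.

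The cells matched a haploid MATa culture in all 4 libraries. STE2, the alpha-factor receptor gene of a cells, stood at 368 and 409 CPM in wild type and 249 and 208 CPM in the knockout. The pheromone genes of alpha cells, MF(ALPHA)1 and MF(ALPHA)2, had at most 4 counts in a wild type library and at most 18 in a knockout library at 37 °C, and were too low to be tested.

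Across all genes, 3387 of 5667 passed at 37 °C, 59.8% of those tested, with 1731 higher in the knockout (30.5%) and 1656 lower (29.2%). The larger changes were mostly rises, 494 genes higher against 81 lower at 2-fold or more and 122 against 14 at 4-fold or more. A test against a 1.5-fold change called 549 higher and 175 lower. In 40.7% of genes both knockout libraries lay above both wild type libraries, and in 39.9% below. With library size alone as the scaling, the median log2 fold change over all genes was higher by 0.125 and gave 2182 higher and 1123 lower, so that 66.0% of calls were higher in place of 51.1%. Counts of gene lists are therefore also given with this scaling where it turns their balance. A list with near 30.5% higher and 29.2% lower does not stand apart from all genes by its counts. Leaving out single libraries gave 2740 genes, without wild type replicate 2 at 37 °C, to 3451.

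At 30 °C, in separate libraries, the same comparison called 1680 genes, 29.6% of those tested, with 829 higher (14.6%) and 851 lower (15%). The log2 fold changes at 37 and 30 °C had a correlation of 0.50 across the 5667 genes, which are not independent replicates. Of the genes called at 37 °C, 30.6% were called in the same direction at 30 °C, and of those called at 30 °C, 61.7% were called in the same direction at 37 °C. The difference between the effects at 37 and 30 °C was itself tested and passed for 1902 genes, 33.6% of those tested, with 930 positive (16.4%) and 972 negative (17.2%). It is called the temperature difference below, and a positive value means a higher log2 fold change at 37 °C. Of the genes called at 2-fold or more at 37 °C, 494 higher and 81 lower, 391 also passed the test of this difference. They were picked by their effect at 37 °C, which is part of the difference, so this number is not separate support.

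**Figure D2:**
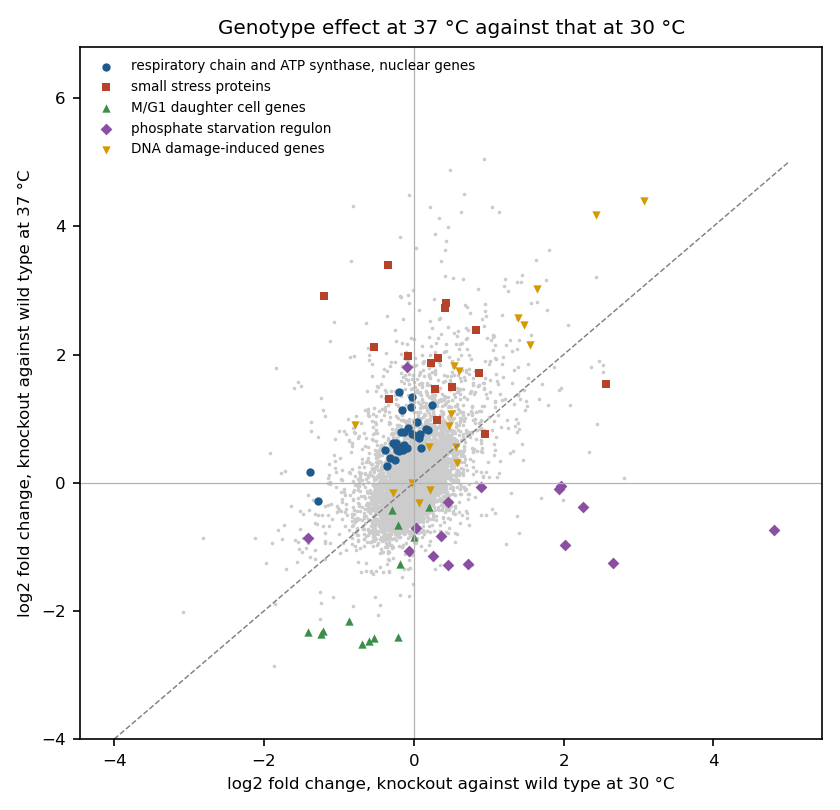
Log2 fold change of knockout over wild type at 30 °C (x axis) and at 37 °C (y axis) for each tested gene in grey, with members of 5 gene lists in colour, the dashed line marking equal effects, and RAD27 and YCL021W-A left out. Damage-induced genes lie mostly above 0 at both temperatures, M/G1 daughter cell genes below 0 at 37 °C, and respiratory chain genes above 0 at 37 °C and near it at 30 °C.

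Genes of the DNA damage response were among the largest rises. HUG1 (chromosome XIII, 158760 to 158966, plus strand), a small inhibitor of ribonucleotide reductase that the Mec1 pathway induces, stood at 7.39 and 7.36 CPM in wild type and 139.7 and 172 CPM in the knockout (4.40 ± 0.16, adjusted p = 5.19e-10). RNR3, the damage-inducible copy of the large subunit of ribonucleotide reductase, the enzyme that makes deoxynucleotides, stood at 15.3 and 17.0 CPM in wild type and 273 and 310.3 CPM in the knockout (4.17 ± 0.15, adjusted p = 6.99e-10). Both knockout libraries lay far above both wild type libraries for each gene, and the knockout replicates differed little from each other. The small subunit genes were also higher, RNR2 at 559 and 548 CPM in wild type and 2907 and 3213 CPM in the knockout (2.47 ± 0.092, adjusted p = 7.09e-10) and RNR4 at 619.6 and 622 CPM in wild type and 3433 and 3948 CPM in the knockout (2.57 ± 0.097, adjusted p = 7.5e-10). RNR1, the main large subunit gene, differed least of the enzyme's 4 genes, at 545 and 518 CPM in wild type and 919 and 627 CPM in the knockout (0.54 ± 0.13, adjusted p = 0.00351), and its groups did not overlap although its knockout libraries stood well apart.

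The regulators of this enzyme differed unevenly. DUN1, the checkpoint kinase gene, stood at 23.3 and 27.4 CPM in wild type and 84.9 and 84.9 CPM in the knockout (1.74 ± 0.11, adjusted p = 7.63e-08), and RAD53, the kinase acting before it, at 0.81 ± 0.094. RFX1, also called CRT1, the repressor of the ribonucleotide reductase genes, was itself higher at 1.07 ± 0.11. SML1, the protein inhibitor that Dun1 marks for degradation, stood at 241 and 224 CPM in wild type and 256 and 250.2 CPM in the knockout and did not pass (0.12 ± 0.068, adjusted p = 0.133). Elsewhere in the checkpoint list of 15 genes, RAD9, an adaptor for Rad53, was lower (-0.39 ± 0.072), as were LCD1, CHK1 and TEL1, and MEC1 did not pass (-0.19 ± 0.12). In this list 2 genes were higher and 4 lower, and with scaling by library size alone 5 were higher and 1 lower, so no direction holds for it as a whole. Without wild type replicate 2 or without knockout replicate 2 at 37 °C, 2 were higher and 2 lower.

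Of 18 DNA damage-induced genes, 14 were higher and 1 was lower in the knockout at 37 °C, with a median log2 fold change of 0.99 against 0.0106 over all genes. PLM2, a transcription factor gene, stood at 14.0 and 12.5 CPM in wild type and 102 and 113 CPM in the knockout (3.02 ± 0.16, adjusted p = 1.37e-08). Both knockout libraries lay far above wild type for PLM2. DIN7, for a mitochondrial nuclease of the same family as Rad27, stood at 1.82 ± 0.13 and RAD54, of homologous recombination, at 0.89 ± 0.085. The lower member was RAD23, of nucleotide excision repair (-0.31 ± 0.065), and its fellows RAD2, RAD7 and RAD16 did not pass. At 30 °C 13 of the 18 were higher and 1 was lower, and the temperature difference was positive for 11 and negative for 2. HUG1 was raised by 3.07 ± 0.22 at 30 °C and RNR3 by 2.44 ± 0.20, and their temperature differences were 1.33 ± 0.34, adjusted p = 0.0104 and 1.74 ± 0.29, adjusted p = 0.000781. Leaving out wild type replicate 2 at 30 °C ended the first of these calls. PHR1, the photolyase gene, went from -0.79 ± 0.19 at 30 °C to 0.90 ± 0.16 at 37 °C.

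**Figure D3:**
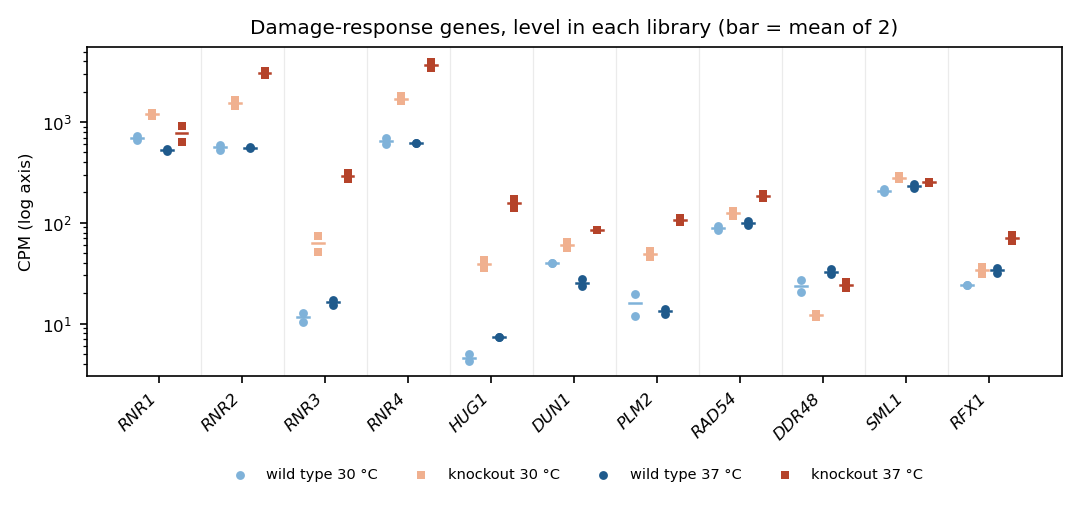
Level in each library, in CPM on a log axis, of 11 genes of the damage response, with circles for wild type, squares for the knockout, pale colours for 30 °C, dark colours for 37 °C and a bar at the mean of 2 libraries. HUG1 and RNR3 go from 7.39 and 15.3 CPM in wild type replicate 1 at 37 °C to 139.7 and 273 CPM in knockout replicate 1, whereas SML1 lies between 224 and 256 CPM at 37 °C.

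Among 21 homologous recombination genes 12 were higher and 0 lower (median 0.32), a count that fell to 7 without wild type replicate 1 at 37 °C, to 6, with 1 lower, without wild type replicate 2 and to 5 with DESeq2. Besides RAD54 they included TOP3, a topoisomerase gene (0.68 ± 0.14), and RAD59, a strand annealing factor (0.54 ± 0.17). RAD50, MRE11 and SAE2, which open broken ends, did not pass, while XRS2, the partner of the first 2, was at 0.40 ± 0.13.

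Of the 21 other genes that make and join Okazaki fragments 6 were higher and 4 lower (median 0.13), and 12 and 0 with scaling by library size alone. These shares are close to or below those over all genes. The counts were 4 and 0 without wild type replicate 1 at 37 °C, 3 and 2 without wild type replicate 2, and 6 and 2 without knockout replicate 2. PRI2, a primase subunit gene, stood highest at 47.0 and 47.9 CPM in wild type and 78.9 and 85.9 CPM in the knockout (0.80 ± 0.11, adjusted p = 5.88e-05). CDC9 stood at 103 and 107 CPM in wild type and 141 and 147 CPM in the knockout (0.45 ± 0.07, adjusted p = 0.000122). EXO1, a nuclease that can also act on flaps, stood at 89.4 and 77.6 CPM in wild type and 105 and 116 CPM in the knockout (0.41 ± 0.088, adjusted p = 0.00154), and both of its knockout libraries lay above wild type. DNA2, the nuclease for long flaps, was slightly lower (-0.22 ± 0.078, adjusted p = 0.0272), a call lost under 7 alternatives in addition to the test against a 1.5-fold change. PIF1, a helicase that lengthens flaps, was at 0.31 ± 0.10, whereas POL3, the catalytic subunit of polymerase delta, and POL30, for PCNA, did not pass (-0.12 ± 0.082 and 0.22 ± 0.091). RNH1, for ribonuclease H1, was lower (-0.33 ± 0.11). Post-replication repair held 4 higher and 2 lower of 10 genes, but 2 and 2 without wild type replicate 1, 3 and 0 without wild type replicate 2 and 3 and 1 without knockout replicate 2. It included MMS2 and UBC13, the ubiquitin conjugation pair for error-free bypass, at 0.57 ± 0.084 and 0.52 ± 0.12. In mismatch repair 3 of 7 were higher and 2 lower, with MSH3 lowest at -0.66 ± 0.093, and without wild type replicate 2 there were 0 higher and 1 lower.

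Falls were ranked where the 4 libraries at 37 °C averaged 10 CPM or more and the groups did not overlap. Of the 10 largest after RAD27 and YCL021W-A, 8 belonged to genes of cell separation. After a daughter cell leaves mitosis, it makes enzymes that dissolve the septum between mother and daughter. All 13 genes of the M/G1 daughter cell list were lower at 37 °C, with a median of -2.32. Their summed level was 10538 and 10286 CPM in wild type and 2434 and 2315 CPM in the knockout. In bulk samples such as these, fewer cells at a stage and less RNA per cell cannot be told apart.

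CTS1 (chromosome XII, 708448 to 710136, minus strand), the chitinase that cuts the septum, stood at 2951 and 2958 CPM in wild type and 580.5 and 575 CPM in the knockout (-2.35 ± 0.069, adjusted p = 1.48e-10). EGT2, for a wall protein of cell separation, stood at 1819 and 1749 CPM in wild type and 361 and 286 CPM in the knockout (-2.46 ± 0.097, adjusted p = 9.76e-10). PRY3, a wall-associated protein gene, stood at 585 and 511 CPM in wild type and 96.1 and 94.5 CPM in the knockout (-2.52 ± 0.083, adjusted p = 3.07e-10). For each of these genes both knockout libraries lay far below both wild type libraries. The glucanase gene DSE4 and the glucanase-like gene SCW11 were at -2.41 ± 0.12 and -2.42 ± 0.088, DSE1 and DSE2 at -2.33 ± 0.067 and -2.32 ± 0.074, and AMN1, a daughter-specific antagonist of mitotic exit, at -2.16 ± 0.081. The smallest falls were those of the cyclin gene PCL9 (-0.42 ± 0.099) and SIC1, the inhibitor of S phase cyclin kinase (-0.37 ± 0.082). SWI5, for a transcription factor of M/G1 genes, did not pass (0.064 ± 0.089).

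At 30 °C 8 of the 13 were lower and 0 higher, and the temperature difference was negative for 12. CTS1 was at -1.24 ± 0.066 at 30 °C and DSE4 at -0.21 ± 0.12, so that DSE4 had the most negative temperature difference of the list (-2.20 ± 0.17, adjusted p = 2.93e-06). Outside the list, YLR285C-A, an open reading frame of unknown function that lies on the same strand just past the 3′ end of CTS1 (chromosome XII, 708168 to 708338), was at -2.12 ± 0.15, and whether its reads belong to the CTS1 transcript was not tested. BSC1, an uncharacterised gene, stood at 332 and 335 CPM in wild type and 99.4 and 61.1 CPM in the knockout (-2.06 ± 0.15, adjusted p = 2.57e-07), with knockout replicate 1 well above replicate 2 but below wild type.

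The stretches before DSE1 and DSE4 are shown because each holds the core of the Swi5 site, CCAGC on either strand, more than once. Each is the 300 bases before the annotated start in R64, read 5′ to 3′ on the minus strand that codes for the gene, with the motif in capitals (DSE1 chrV:409064-409363, DSE4 chrXIV:759100-759399). The motif occurred in 8 of 13 such stretches in the list, 61.5%, and in 20.9% of 5528 tested genes. Other lists held it too, with 46.2% for the glycogen genes, all higher, and 32.1% for the cytosolic ribosomal proteins, mostly lower. The bearing of the motif on the falls was not tested. CCAGC was found before DSE1, DSE2, DSE4, EGT2 and PRY3 and not in this window before CTS1, SCW11 or AMN1.
DSE1: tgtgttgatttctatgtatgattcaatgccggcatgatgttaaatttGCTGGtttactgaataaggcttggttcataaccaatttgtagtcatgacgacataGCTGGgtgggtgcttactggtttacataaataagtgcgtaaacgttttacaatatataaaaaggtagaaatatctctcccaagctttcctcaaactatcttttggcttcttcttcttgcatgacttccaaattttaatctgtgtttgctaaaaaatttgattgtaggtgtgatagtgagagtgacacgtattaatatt
DSE4: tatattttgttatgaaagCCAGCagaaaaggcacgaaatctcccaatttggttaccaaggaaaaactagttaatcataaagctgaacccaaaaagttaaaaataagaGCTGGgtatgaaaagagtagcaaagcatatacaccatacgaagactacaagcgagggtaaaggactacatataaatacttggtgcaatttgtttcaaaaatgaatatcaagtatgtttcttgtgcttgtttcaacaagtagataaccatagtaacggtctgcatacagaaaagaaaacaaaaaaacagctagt

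Histone genes, transcribed in S phase, were lower in 9 of 10 cases and higher in 1, with a median of -0.83. Their summed level was 3685 and 3502 CPM in wild type and 2031 and 2006 CPM in the knockout. HTB2 and HTA2, for histones H2B and H2A, stood at 498 and 473 CPM in wild type and 159 and 123 CPM in the knockout (-1.79 ± 0.11, adjusted p = 5.68e-08) and 243 and 227 CPM in wild type and 98.3 and 80.8 CPM in the knockout (-1.39 ± 0.12, adjusted p = 1.09e-06). For both genes the knockout libraries lay well below wild type, with replicate 2 the lower. HTZ1, for the variant H2A.Z, was at -0.34 ± 0.12, and the higher member was HHO1, for linker histone (0.34 ± 0.078). The genes HHF1 and HHF2, both for histone H4, are near-identical and can share reads.

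Other cell cycle genes moved in both directions. Of 14 G1/S genes 7 were higher (50%) and 3 lower (21.4%), against 30.5% and 29.2% over all genes. The G1 cyclin gene CLN1 was higher at 0.94 ± 0.093, CLN2 lower at -0.33 ± 0.085 and PCL1 lowest at -0.82 ± 0.15. The S phase cyclin gene CLB5 stood at 0.68 ± 0.12. Of 15 G2/M and cytokinesis genes 4 were higher (26.7%) and 6 lower (40%), or 5 and 4 with scaling by library size alone. CLB1, a mitotic cyclin gene, stood at 0.80 ± 0.081 and CLB2 at -0.29 ± 0.086. MYO1, for the myosin of the contractile ring, was at -0.59 ± 0.083 and CDC5, the polo kinase gene, at -0.43 ± 0.096. The cyclin CLB1 was lower at 30 °C (-0.93 ± 0.085), a temperature difference of 1.73 ± 0.12, adjusted p = 1.05e-06. Among genes for the replicative helicase and origin licensing MCM6 was at -0.45 ± 0.084 and CDC45 at 0.46 ± 0.12. Of these 17 genes 4 were higher (23.5%) and 3 lower (17.6%), both below the shares over all genes. These counts were 0 and 4 without wild type replicate 1 at 37 °C and 3 and 5 without knockout replicate 1.

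**Figure D4:**
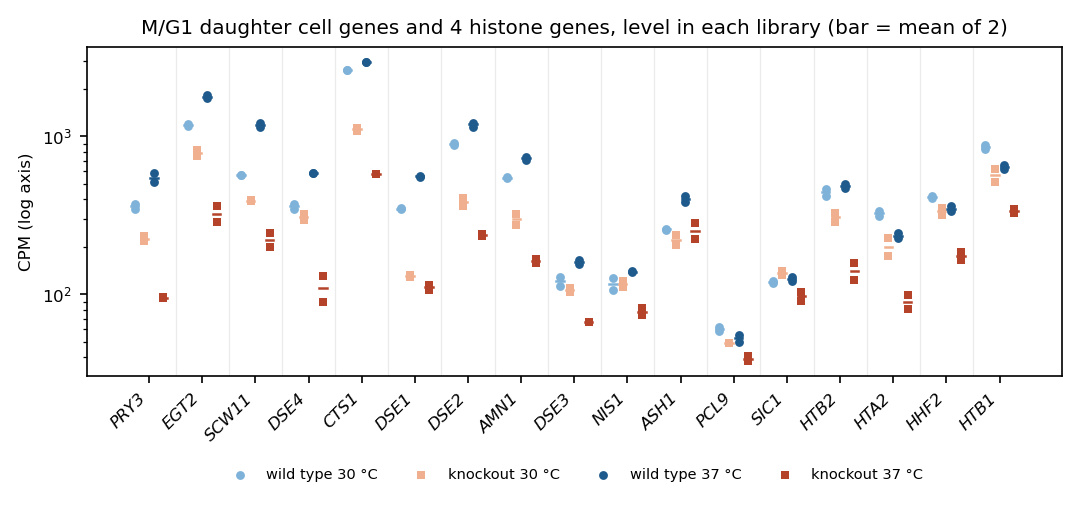
Level in each library, in CPM on a log axis, of the 13 M/G1 daughter cell genes and the 4 histone genes with the lowest log2 fold changes, with symbols, colours and bars as in the plot of damage-response genes. From PRY3 to AMN1 the dark red squares of the knockout at 37 °C lie well below the dark blue circles of wild type, while PCL9 and SIC1 differ little.

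Small stress protein genes were higher throughout. Many are targets of Msn2 and Msn4, the activators that yeast uses against heat, starvation and oxidation through the site AGGGG. Of 16 such genes 16 were higher and 0 lower, SIP18 having reached the count minimum only through the knockout libraries at 37 °C, with a median of 1.91, and their summed level was 1433 and 1427 CPM in wild type and 4993 and 5824 CPM in the knockout. This list, like the others, was chosen with earlier results of these data known. Its counts, also those of the temperature difference, are therefore a description and not independent support. HSP26, a small heat shock chaperone counted in the chaperone list and not among the 16, stood at 75.4 and 72.3 CPM in wild type and 1100.4 and 1013 CPM in the knockout (3.84 ± 0.089, adjusted p = 2.22e-11). HSP12, a membrane-associated stress protein, stood at 194 and 182 CPM in wild type and 720.0 and 918 CPM in the knockout (2.12 ± 0.13, adjusted p = 8.5e-08). DDR2, another stress gene, stood at 6.06 and 4.34 CPM in wild type and 46.9 and 62.4 CPM in the knockout (3.39 ± 0.25, adjusted p = 2.88e-07), and HSP30, for a plasma membrane stress protein, at 12.7 and 15.5 CPM in wild type and 131 and 82.0 CPM in the knockout (2.91 ± 0.24, adjusted p = 7.19e-07). Each of these genes was several fold higher in both knockout libraries, and the groups did not overlap.

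At 30 °C 5 of the 16 small stress protein genes were higher and 1 was lower (median 0.32). None of the 4 genes just described was called higher there. HSP26 was at -0.19 ± 0.17, HSP12 at -0.53 ± 0.23, DDR2 at -0.34 ± 0.43 and HSP30 at -1.20 ± 0.31. The temperature difference was positive for 13 of the 16 and negative for 0. It was 4.03 ± 0.20, adjusted p = 1.19e-07 for HSP26 and 4.11 ± 0.39, adjusted p = 1.56e-05 for HSP30, 2 of the 6 most positive where the 8 libraries averaged 10 CPM or more. Of the activators, MSN4 was higher (1.22 ± 0.13) and MSN2 slightly lower (-0.29 ± 0.075). The repressor gene XBP1, itself a stress gene, stood at 23.7 and 21.7 CPM in wild type and 122 and 258 CPM in the knockout (3.07 ± 0.29, adjusted p = 2.57e-06, and 3.48 without knockout replicate 1 or 2.42 without replicate 2). HSF1, the heat shock factor gene, did not pass (-0.0086 ± 0.075). Of 18 genes for transcription factors of stress and nutrients 8 were higher and 2 lower.

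Chaperones divided. Of 30 heat shock chaperone genes 9 were higher and 15 lower, with a median of -0.17 and a summed level of 26051 and 25697 CPM in wild type and 19586 and 17068 CPM in the knockout. Among the lower members were housekeeping chaperones. HSC82, the constitutive Hsp90, stood at 3915 and 3998 CPM in wild type and 1767 and 1359.6 CPM in the knockout (-1.34 ± 0.11, adjusted p = 5.53e-07), and HSP82, its heat-inducible partner, at 1409.6 and 1309 CPM in wild type and 1134 and 775 CPM in the knockout (-0.51 ± 0.13, adjusted p = 0.00485). STI1 and YDJ1, co-chaperones that link Hsp70 and Hsp90, were at -0.77 ± 0.092 and -0.76 ± 0.08, and SSE1, an Hsp70 exchange factor, at -0.68 ± 0.074. SSA2 and SSA1, for cytosolic Hsp70, were lower too (-1.35 ± 0.11 and -0.47 ± 0.083) but are near-identical copies that can share reads. The higher members besides HSP26 included the small chaperone gene HSP42 (1.28 ± 0.086), the Hsp70 relative SSE2 (1.17 ± 0.097) and the disaggregases HSP78, of mitochondria (0.79 ± 0.097), and HSP104 (0.65 ± 0.072).

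At 30 °C the balance was the other way, with 14 of the 30 higher and 2 lower, and the temperature difference was negative for 14 and positive for 6. HSP82 went from 0.96 ± 0.14 at 30 °C to -0.51 ± 0.13 at 37 °C, a temperature difference of -1.47 ± 0.19, adjusted p = 0.000157. In the endoplasmic reticulum list 4 of 15 were higher and 5 lower, and 6 and 2 with scaling by library size alone or 2 and 2 without wild type replicate 1 at 37 °C. With the main scaling the shares of that list, 26.7% higher and 33.3% lower, were close to those over all genes. KAR2, the luminal Hsp70 gene, went from 0.43 ± 0.11 at 30 °C to -0.42 ± 0.11 at 37 °C.

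Reserve carbohydrates followed the small stress proteins. All 13 glycogen genes were higher (median 1.53), and so were 9 of 10 trehalose genes, with 0 lower (median 0.90). GLC3, the branching enzyme of glycogen, stood at 16.5 and 15.5 CPM in wild type and 208 and 516 CPM in the knockout (4.50 ± 0.38, adjusted p = 9.36e-07). The knockout libraries differed more than 2-fold for GLC3 but both lay far above wild type, with 4.98 without knockout replicate 1 and 3.69 without replicate 2. GAC1, which brings a phosphatase to glycogen synthase, stood at 6.44 and 9.25 CPM in wild type and 102 and 190.3 CPM in the knockout (4.22 ± 0.30, adjusted p = 2.42e-07). The glycogen synthase genes GSY1 and GSY2 were at 2.78 ± 0.28 and 0.98 ± 0.11, and GPH1, the phosphorylase that breaks glycogen down, at 2.38 ± 0.14. Enzymes of synthesis and of breakdown were thus both higher. For trehalose, TPS1 and TPS2, the synthase and its phosphatase, were at 1.19 ± 0.089 and 1.60 ± 0.14, and the trehalase genes NTH1 and ATH1 at 0.86 ± 0.066 and 0.95 ± 0.13. PGM2, for the phosphoglucomutase that feeds both stores, stood at 68.2 and 57.9 CPM in wild type and 210.2 and 256 CPM in the knockout (1.89 ± 0.11, adjusted p = 3.42e-08). At 30 °C 6 of the 13 glycogen genes and 4 of the 10 trehalose genes were higher, with 0 lower in either list. The temperature difference was positive for 10 of the 13 glycogen genes and for 8 of the 10 trehalose genes, and it was negative for PGM1.

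GLC3 is shown because it carries the stress response element AGGGG more than once, here as AGGGG or its reverse CCCCT in capitals. The stretch is the 300 bases before the annotated start on the plus strand (chrV:132820-133119, R64). AGGGG on either strand occurred in 12 of 16 such stretches of the small stress proteins, 75%, in 5 of 13 of the glycogen genes, 38.5%, and in 22.5% of 5528 tested genes. Lists that were not mostly higher held it too, with 72.7% for the pentose phosphate pathway and 50% for histones. HSP26 held none in this window. Whether the motif bears on the changes was not tested.
GLC3: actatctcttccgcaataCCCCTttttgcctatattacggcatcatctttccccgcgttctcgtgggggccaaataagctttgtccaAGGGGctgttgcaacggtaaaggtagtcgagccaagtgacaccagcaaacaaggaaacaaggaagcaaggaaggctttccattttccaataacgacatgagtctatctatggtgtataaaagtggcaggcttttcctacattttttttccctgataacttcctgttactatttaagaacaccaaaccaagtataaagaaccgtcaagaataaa

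Several other genes were among the 12 largest rises. PIR3, a wall glycoprotein gene, stood at 11.4 and 7.17 CPM in wild type and 194 and 352 CPM in the knockout (4.88 ± 0.29, adjusted p = 5.06e-08) and EGO4 at 3.98 and 4.34 CPM in wild type and 69.9 and 117 CPM in the knockout (4.49 ± 0.28, adjusted p = 8.75e-08). RGI1, a gene known for its induction in respiratory growth, stood at 10.4 and 13.2 CPM in wild type and 144 and 322 CPM in the knockout (4.31 ± 0.36, adjusted p = 9.36e-07), with 4.74 and 3.60 without knockout replicate 1 or 2. TMA10, for a ribosome-associated protein, stood at 14.2 and 13.6 CPM in wild type and 160.2 and 388 CPM in the knockout (4.30 ± 0.42, adjusted p = 2.87e-06), with 4.77 and 3.51. YNL194C, for a membrane protein, stood at 1.33 and 1.89 CPM in wild type and 11.3 and 52.6 CPM in the knockout (4.32 ± 0.76, adjusted p = 0.000356), with 4.99 and 2.79, so its size rests largely on knockout replicate 2. EGO4, PIR3, RGI1 and GLC3 were, with HSP26 and HSP30, the 6 most positive temperature differences, at 4.55 ± 0.65, adjusted p = 0.00029, 4.40 ± 0.65, adjusted p = 0.000374, 4.09 ± 0.67, adjusted p = 0.000709 and 3.84 ± 0.64, adjusted p = 0.000781 in that order.

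Of 21 antioxidant genes 14 were higher and 4 lower, the latter reduced to 1 without knockout replicate 2, to 2 without wild type replicate 1 and to 0 without wild type replicate 2. GPX1, a glutathione peroxidase gene, was at 2.16 ± 0.22, TSA2, the minor peroxiredoxin, at 1.69 ± 0.17 and CTT1, the cytosolic catalase, at 1.26 ± 0.14, while TSA1, the main peroxiredoxin, did not pass (-0.094 ± 0.069). In the list of autophagy and vacuolar proteases 16 of 20 rose and 0 fell (median 0.68). ATG8, which builds the autophagosome membrane, stood at 7.39 and 6.04 CPM in wild type and 20.1 and 23.1 CPM in the knockout (1.69 ± 0.18, adjusted p = 5.8e-06), and PRB1, vacuolar protease B, at 246 and 234 CPM in wild type and 615 and 894 CPM in the knockout (1.65 ± 0.13, adjusted p = 5.53e-07).

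Genes of glycolysis moved in both directions. The list held 5 higher (29.4%) and 6 lower (35.3%) of 17 genes (8 and 6 with scaling by library size alone). These shares, with a median of 0.022, were close to the 30.5% and 29.2% over all genes. The higher ones were HXK1 and GLK1, the hexokinase and glucokinase used when glucose is scarce, TDH1, ENO1 and PYK2. TDH1, an isozyme of glyceraldehyde-3-phosphate dehydrogenase, stood at 193 and 189 CPM in wild type and 1396 and 1444 CPM in the knockout (2.89 ± 0.095, adjusted p = 3.07e-10), and ENO1, an enolase, at 638 and 636 CPM in wild type and 2279 and 2406 CPM in the knockout (1.88 ± 0.091, adjusted p = 8.12e-09). HXK1 stood at 129 and 126 CPM in wild type and 554 and 1230.5 CPM in the knockout (2.81 ± 0.27, adjusted p = 2.57e-06), with 3.24 without knockout replicate 1 and 2.11 without replicate 2. HXK2, the main hexokinase during growth on glucose, was lower instead, at 1373 and 1375 CPM in wild type and 648 and 646 CPM in the knockout (-1.09 ± 0.064, adjusted p = 4.96e-08). CDC19, the main pyruvate kinase, was at -0.47 ± 0.10 and the main enolase ENO2 at -0.42 ± 0.11. TDH1 and ENO1 were not raised at 30 °C (-0.18 ± 0.12 and -0.25 ± 0.09). In the pentose phosphate pathway, which makes NADPH, 4 of 11 genes were higher and 2 lower, or 1 lower when either wild type library was left out. The minor isozymes GND2 and NQM1 stood highest (2.31 ± 0.12 and 2.19 ± 0.14) while TKL1, the main transketolase, was lower (-0.41 ± 0.068).

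The hexose transporter genes moved in both directions. HXT1, the low-affinity transporter for high glucose, stood at 773 and 821 CPM in wild type and 244 and 232 CPM in the knockout (-1.75 ± 0.066, adjusted p = 7.77e-10). HXT4, of higher affinity, stood at 236 and 209 CPM in wild type and 714 and 1125 CPM in the knockout (2.05 ± 0.17, adjusted p = 7.5e-07), and the high-affinity pair HXT6 and HXT7, near-identical genes that can share reads, at 3.88 ± 0.24 and 3.24 ± 0.24. HXT2, at 1007 and 861 CPM in wild type and 573 and 1418 CPM in the knockout, did not pass, with its knockout libraries on either side of wild type. Its log2 fold change was 0.57 without knockout replicate 1 and -0.72 without replicate 2, each past the threshold. Of 12 transporter and sensor genes, HXT8 and GAL2 were too low to test, HXT10 reached the count minimum only through the knockout libraries at 37 °C, and among the 10 tested there were 6 higher and 3 lower. MIG1, the repressor that acts in glucose, was lower (-0.76 ± 0.085, adjusted p = 8.72e-06).

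Genes that glucose normally holds down were higher. Of 17 genes of gluconeogenesis, the glyoxylate cycle and fatty acid use, POT1 was too low to test, 15 were higher and 1 was lower. FBP1, for fructose-1,6-bisphosphatase, stood at 0.758 and 0.943 CPM in wild type and 8.97 and 47.7 CPM in the knockout (5.05 ± 0.92, adjusted p = 0.00046), and this fell to 3.35 without knockout replicate 2. PCK1, for the first step of gluconeogenesis, stood at 10.2 and 7.93 CPM in wild type and 48.0 and 181 CPM in the knockout (3.67 ± 0.54, adjusted p = 8.52e-05, and 2.38 without knockout replicate 2). JEN1, the lactate transporter gene, stood at 3.03 and 3.40 CPM in wild type and 28.6 and 83.3 CPM in the knockout (4.13 ± 0.52, adjusted p = 2.57e-05, and 3.13 without knockout replicate 2). Both knockout libraries were above wild type for each, with replicate 2 the higher. ADH2, the alcohol dehydrogenase used on ethanol, lost its call without knockout replicate 2 (1.21 ± 0.42, and 0.43 without it). CAT8, the activator of these genes, stood at 12.1 and 10.4 CPM in wild type and 26.4 and 56.0 CPM in the knockout (1.88 ± 0.30, adjusted p = 0.000178, and 1.21 without knockout replicate 2), and ADR1, a further activator, did not pass (0.38 ± 0.17). The lower member was MDH2, for cytosolic malate dehydrogenase (-0.86 ± 0.19, adjusted p = 0.00163), which was lower still at 30 °C (-2.82 ± 0.19).

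Respiratory genes were higher in the knockout than in wild type at 37 °C and not at 30 °C. Of 31 nuclear genes for the respiratory chain and ATP synthase 28 were higher and 0 lower at 37 °C, with a median of 0.62. At 30 °C 0 were higher and 8 lower, and the temperature difference was positive for all 31. Their summed level at 37 °C was 3429.8 and 3585 CPM in wild type and 5337 and 5599 CPM in the knockout. At 30 °C it was 5421 and 5868 CPM in wild type and 5123 and 5320 CPM in the knockout. The wild type sum was thus lower at 37 than at 30 °C, while the knockout sums were close. NDI1, the internal NADH dehydrogenase, stood at 45.9 and 54.2 CPM in wild type and 123 and 143 CPM in the knockout (1.41 ± 0.10, adjusted p = 2.42e-07). CYT1, for cytochrome c1, stood at 50.4 and 65.5 CPM in wild type and 121 and 147 CPM in the knockout (1.21 ± 0.14, adjusted p = 8.52e-06), and RIP1, the Rieske iron-sulfur protein, at 1.18 ± 0.12. ATP1 and ATP2, the catalytic core of ATP synthase, were at 0.60 ± 0.068 and 0.51 ± 0.068. The count was 28 without knockout replicate 1 and 28 without knockout replicate 2.

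The TCA cycle list was higher in 16 of 17 cases with 0 lower (median 0.46). CIT3 had the largest rise of the list, a log2 fold change of 2.18. Of the subunits of succinate dehydrogenase, SDH1 stood at 59.7 and 56.8 CPM in wild type and 166 and 218 CPM in the knockout (1.72 ± 0.12, adjusted p = 2.12e-07). SDH2 was at 1.63 ± 0.11 and SDH3 at 0.61, while CIT1, a citrate synthase, was at 0.74 ± 0.11. HAP4, the activator of respiratory genes, was at 0.35 ± 0.096. Of 67 mitochondrial ribosomal protein genes 25 were higher and 0 lower (median 0.19), but 11 without wild type replicate 1 at 37 °C, 15 without wild type replicate 2 and 10 with DESeq2. Of 8 protein-coding genes of the mitochondrial genome, 7 had too few counts to be tested.

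Genes for making ribosomes were lower, from assembly factors to ribosomal proteins. Of 64 ribosome assembly genes 57 were lower and 1 higher, with a median of -0.64, and their summed level was 17648 and 17507 CPM in wild type and 11336 and 10643 CPM in the knockout. UTP18, of the small subunit processome, stood at 224 and 235 CPM in wild type and 125 and 91.4 CPM in the knockout (-1.09 ± 0.11, adjusted p = 4.52e-06), and RRP5, which acts on both subunits, at 1029.5 and 975 CPM in wild type and 538 and 490.0 CPM in the knockout (-0.96 ± 0.072, adjusted p = 3.58e-07). RPA190, the largest subunit of RNA polymerase I, which transcribes ribosomal RNA, stood at 1119.7 and 1048 CPM in wild type and 613 and 559 CPM in the knockout (-0.89 ± 0.077, adjusted p = 1.14e-06). In the lists of RNA polymerase I and III, 9 of 11 and 11 of 15 genes were lower and 0 higher, and for polymerase III 7 of 15 with scaling by library size alone.

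Cytosolic ribosomal protein genes were lower in 118 of 137 cases and higher in 0, by small amounts (median -0.32). Their summed level was 107799.9 and 111968 CPM in wild type and 91520.0 and 84251 CPM in the knockout. RPS28B was lowest (-1.11 ± 0.13, adjusted p = 9.7e-06), and many members are near-identical pairs that can share reads. With scaling by library size alone 80 were lower and 1 was higher. At 30 °C 6 were higher and 8 lower, and the temperature difference was negative for 78 and positive for 0. Of the elongation factors, YEF3 stood at 9901 and 9754 CPM in wild type and 6113 and 5726 CPM in the knockout (-0.73 ± 0.095, adjusted p = 2.91e-05) and HYP2, for eIF5A, at -0.68 ± 0.073. Their rarely used paralogs HEF3 and ANB1 were higher, at 1.34 ± 0.17 and 0.87 ± 0.19.

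**Figure D5:**
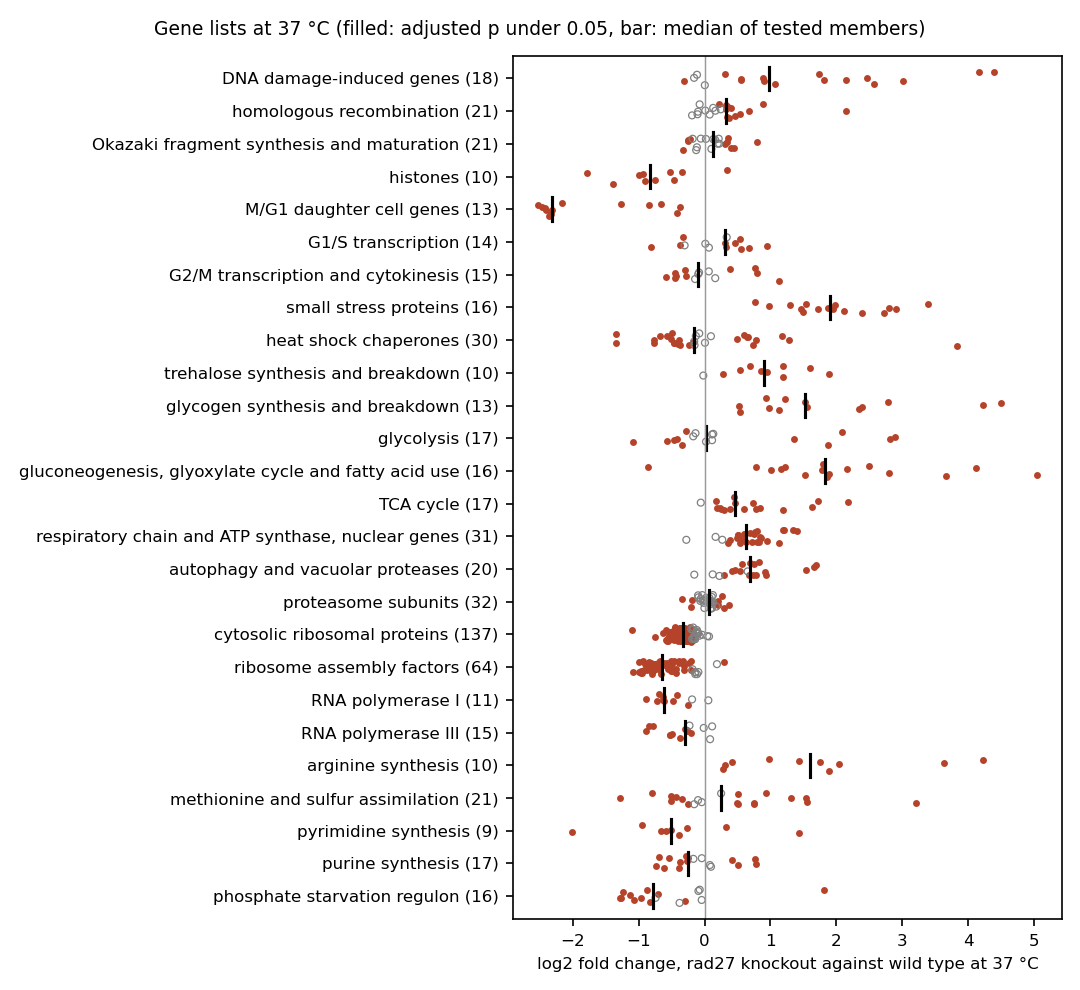
Log2 fold change of knockout over wild type at 37 °C for each tested member of 26 gene lists, 1 point a gene with filled points past the adjusted p threshold and a black bar at the list median, with the number tested in brackets. M/G1 genes cluster near -2.32, small stress proteins spread around 1.91, and ribosome assembly genes lie mostly below 0.

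Arginine synthesis stood out among the amino acid pathways, all 10 genes being higher with a median of 1.59. ARG1, for argininosuccinate synthase, stood at 35.1 and 33.4 CPM in wild type and 573 and 713 CPM in the knockout (4.23 ± 0.20, adjusted p = 5.13e-09), and ARG3, for ornithine carbamoyltransferase, at 4.74 and 7.55 CPM in wild type and 72.9 and 80.7 CPM in the knockout (3.64 ± 0.17, adjusted p = 6.54e-09). ARG5,6, for the early steps in mitochondria, was at 2.04 ± 0.11. For ARG1 both knockout libraries lay far above wild type and differed little from each other. Temperature differences were positive for 7 of the 10, that of ARG1 being 3.10 ± 0.26, adjusted p = 6.01e-06. CAR2, which degrades ornithine, went the other way, at 352 and 386 CPM in wild type and 202 and 180.2 CPM in the knockout (-0.95 ± 0.087, adjusted p = 1.74e-06) against 1.24 ± 0.094 at 30 °C, and its temperature difference of -2.19 ± 0.13, adjusted p = 3.37e-07 was among the 6 most negative.

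The stretch before ARG1 is shown because arginine genes are targets of Gcn4, whose core site is TGACTC. It is the 300 bases before the annotated start on the plus strand (chrXV:218911-219210, R64), with TGACTC, here as its reverse GAGTCA, in capitals. This motif on either strand occurred in 9 of 10 such stretches of the arginine list, 90%, and in 8% of 5528 tested genes. ARG3 held none in this window. Lists that were mixed or mostly lower held it too, with 83.3% for histidine, 66.7% for branched-chain amino acid and 58.8% for purine synthesis. Its bearing on the rises was not tested. GCN4 transcript itself did not pass (-0.088 ± 0.068, adjusted p = 0.287).
ARG1: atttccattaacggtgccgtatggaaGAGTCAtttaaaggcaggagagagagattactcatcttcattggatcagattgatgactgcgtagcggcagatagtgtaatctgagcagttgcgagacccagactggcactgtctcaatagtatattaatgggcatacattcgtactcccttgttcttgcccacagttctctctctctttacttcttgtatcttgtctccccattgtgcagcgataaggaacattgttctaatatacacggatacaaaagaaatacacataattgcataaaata

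Other amino acid pathways were mixed. HIS4, a histidine enzyme that Gcn4 controls, stood at 96.6 and 85.1 CPM in wild type and 334 and 413 CPM in the knockout (2.04 ± 0.15, adjusted p = 3.98e-07), HIS5 at 0.94 ± 0.097 and HIS6 at -0.84 ± 0.13. In all, 3 of 6 histidine genes tested were higher and 1 was lower, and HIS3 had 0 counts in all 8 libraries. Of 10 lysine genes 7 were higher and 0 lower, or 4 and 0 without wild type replicate 2 at 37 °C, led by LYS1 (0.97 ± 0.098) and LYS2 (0.75 ± 0.089). Branched-chain amino acid genes held 4 higher and 2 lower of 12, and 9 and 1 with scaling by library size alone. For ammonium use, GDH1, the dehydrogenase that makes glutamate, was lower (-0.85 ± 0.075, adjusted p = 1.32e-06), and GDH2, which degrades it, was higher (1.18 ± 0.25, adjusted p = 0.00134, and 0.47 without knockout replicate 2).

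Sulfur genes were mixed at 37 °C, whereas at 30 °C most were higher. Of 21 genes 10 were higher and 7 lower at 37 °C against 17 and 0 at 30 °C, and the temperature difference was negative for 10 and positive for 0. The sulfate permease genes were higher at both temperatures, SUL2 at 15.2 and 14.3 CPM in wild type and 37.9 and 47.4 CPM in the knockout (1.53 ± 0.16, adjusted p = 5.59e-06) and SUL1 at 3.21 ± 0.40. MET17, for homocysteine synthase, went from 1.70 ± 0.077 at 30 °C to -0.24 ± 0.078 at 37 °C, though another annotated gene overlaps it and whether reads were counted by strand is not given. MET6, methionine synthase, went from 0.90 ± 0.095 to -0.51 ± 0.1. MMP1, the permease for S-methylmethionine, stood at 57.8 and 57.6 CPM in wild type and 22.7 and 24.5 CPM in the knockout (-1.29 ± 0.13, adjusted p = 3.39e-06), with a temperature difference of -2.07 ± 0.17, adjusted p = 5.04e-06. Proteasome subunits behaved alike, with 5 of 32 higher and 3 lower at 37 °C (16 and 1 with scaling by library size alone, 3 and 2 when either wild type library at 37 °C was left out, and 3 and 3 without knockout replicate 1) against 25 and 0 at 30 °C, and a temperature difference negative for 16 and positive for 0. RPN4, the activator of proteasome genes, was nonetheless higher at 37 °C (0.97 ± 0.14, adjusted p = 9.65e-05).

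Pyrimidine synthesis genes were mostly lower. Of 9 genes 7 were lower and 2 higher, or 6 and 1 without wild type replicate 2 at 37 °C. Of 17 purine genes tested 9 were lower and 4 higher, but 6 and 6 with scaling by library size alone. URA1, for dihydroorotate dehydrogenase, stood at 499 and 502 CPM in wild type and 128 and 121 CPM in the knockout (-2.01 ± 0.067, adjusted p = 3.07e-10), a smaller fall than at 30 °C (-3.08 ± 0.067). URA4 was at -0.94 ± 0.083 and URA2, for the first steps, at -0.58 ± 0.091. GUA1, GMP synthase, stood at 1246 and 1244 CPM in wild type and 778 and 709 CPM in the knockout (-0.74 ± 0.071, adjusted p = 2.41e-06), and IMD2, the regulated IMP dehydrogenase, was higher at 0.78 ± 0.11. ADE2 had at most 3 counts in any library. URA3, named here after its value was seen, lies outside the list because it often serves as a strain marker. It stood at 47.8 and 50.8 CPM in wild type and 160.4 and 160.1 CPM in the knockout (1.70 ± 0.092, adjusted p = 1.96e-08). The labels give neither the strain background nor the marker, and their part in this value was not tested. RIB4, for lumazine synthase of riboflavin synthesis, was at -0.93 ± 0.076, with 2 of 6 genes of that pathway higher and 2 lower, or 1 lower when either wild type library or knockout replicate 2 was left out.

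The phosphate starvation regulon was mostly higher in the knockout than in wild type at 30 °C and mostly lower at 37 °C. Of 16 genes 10 were lower and 1 was higher at 37 °C (median -0.79), against 9 higher and 1 lower at 30 °C, and the temperature difference was negative for 14 and positive for 1. Their summed level in wild type was 2493 and 2549 CPM at 30 °C and 4880 and 4964 CPM at 37 °C. In the knockout it was 4514 and 3038 CPM at 30 °C and 3066 and 2331 CPM at 37 °C. The wild type sum was thus higher at 37 than at 30 °C, while the knockout sums at 30 and 37 °C overlapped. SPL2, which restrains low-affinity phosphate uptake, stood at 37.1 and 37.5 CPM in wild type and 22.5 and 15.9 CPM in the knockout (-0.97 ± 0.21, adjusted p = 0.00184) against 2.01 ± 0.26 at 30 °C. PHO89, a phosphate transporter gene, stood at 25.8 and 18.9 CPM in wild type and 8.97 and 17.4 CPM in the knockout and did not pass (-0.74 ± 0.35, adjusted p = 0.0865), against 4.81 ± 0.47 at 30 °C, which made its temperature difference the most negative of all genes whose 8 libraries averaged 10 CPM or more (-5.55 ± 0.62, adjusted p = 5.12e-05). PHO12, an acid phosphatase gene near-identical to PHO11, stood at 16.5 and 13.6 CPM in wild type and 7.69 and 5.06 CPM in the knockout (-1.25 ± 0.37, adjusted p = 0.0108), a call lost without wild type replicate 1, with a temperature difference of -3.91 ± 0.48, adjusted p = 9.22e-05. VTC3 and VTC4, which make polyphosphate in the vacuole membrane, were at -1.29 ± 0.16 and -1.14 ± 0.14. PHO84, the main transporter gene, was at -1.27 ± 0.23, though an antisense gene overlaps it. PHM8, a phosphatase gene, was the higher member (1.81 ± 0.095).

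SPL2 is shown because its upstream stretch holds CACGTG, the core site of Pho4, the activator of the regulon, at 3 places. The stretch is the 300 bases before the annotated start on the minus strand (chrVIII:375101-375400, R64), with CACGTG, which is its own reverse complement, in capitals. This motif occurred in 8 of 16 such stretches of the regulon, 50%, and in 3.6% of 5528 tested genes. PHO84 and PHO89 held none in this window, and the sulfur list held it in 38.1%. Its bearing on the changes was not tested.
SPL2: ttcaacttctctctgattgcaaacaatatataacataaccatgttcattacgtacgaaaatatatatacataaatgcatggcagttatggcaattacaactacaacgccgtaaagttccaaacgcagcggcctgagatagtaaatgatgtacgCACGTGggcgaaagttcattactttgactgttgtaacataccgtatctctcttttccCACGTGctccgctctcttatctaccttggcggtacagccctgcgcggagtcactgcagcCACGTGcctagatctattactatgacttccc

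Of 17 genes of the iron regulon 9 were higher and 5 lower, or 8 and 3 without wild type replicate 1 at 37 °C. The high-affinity uptake pair FTR1 and FET3 was lower, at 369.7 and 345 CPM in wild type and 177 and 139 CPM in the knockout (-1.18 ± 0.098, adjusted p = 7.94e-07) and -1.07 ± 0.10. The wall mannoprotein genes FIT2 and FIT3 were higher, at 0.92 ± 0.21 and 1.49 ± 0.14, as was HMX1, heme oxygenase (1.29 ± 0.20). Of 16 cell wall integrity genes 11 were higher and 3 lower. PST1, a wall protein gene, stood at 316 and 319 CPM in wild type and 771 and 1211 CPM in the knockout (1.64 ± 0.15, adjusted p = 1.65e-06), SLT2, the kinase of the pathway, at 0.87 ± 0.077 and GSC2, the inducible glucan synthase, at 0.97 ± 0.078, whereas PIR1 was lower (-1.0 ± 0.074). Ergosterol genes were lower in 12 of 23 cases and higher in 4, led by ERG13 (-0.57 ± 0.069) and ERG11 (-0.54 ± 0.079).

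Of 7 MATa genes 5 were lower and 1 higher at 37 °C, and the part of cell type markers in the other results was not tested. The summed level of the MATa genes was 1174 and 1273 CPM in wild type and 722 and 596 CPM in the knockout. Among them were STE6, the exporter of a-factor, at 391 and 418 CPM in wild type and 202 and 152 CPM in the knockout (-1.20 ± 0.11, adjusted p = 1.88e-06) and BAR1, the protease against alpha-factor, at -1.12 ± 0.12. STE12, the transcription factor of the mating response, and FAR1, which arrests the cycle in G1, were lower (-0.82 ± 0.084 and -0.75 ± 0.11), as was STE4 (-0.30 ± 0.078), and the other haploid genes GPA1, STE5, STE18, FUS3 and RME1 did not pass. STE3, the receptor gene of alpha cells, stood at 4.55 and 3.40 CPM in wild type and 8.24 and 9.45 CPM in the knockout (1.15 ± 0.30, adjusted p = 0.00493), and SAG1, for the alpha agglutinin, at 0.30 ± 0.11. Both calls were lost with DESeq2 and without wild type replicate 2 at 37 °C, and that of SAG1 also without wild type replicate 1 or knockout replicate 1. Among 14 meiosis genes SPO13 was too low to test and SPR3 reached the count minimum only through the knockout libraries at 37 °C. Of the 13 tested 5 were higher and 2 lower, but 3 and 1 when either wild type library was left out and 4 and 1 without knockout replicate 2. HOP1, for a protein of the meiotic chromosome axis, stood at 1.52 and 0.943 CPM in wild type and 15.6 and 12.5 CPM in the knockout (3.48 ± 0.31, adjusted p = 1.36e-06). IME1, the inducer of meiosis, was lower (-0.81 ± 0.20), and SPO11, SPS1 and SPS4 did not pass.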

How the data were processed

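RNA was measured in 8 libraries, 2 a group. The files deposited by the authors hold raw counts of reads for each gene, and STAR, HTSeq and the builds R64 and sacCer3 stand in the submitters' processing notes, without versions. Strand use and the treatment of reads with several hits are not stated in the labels. All 8 libraries were fitted together with edgeR 4.0.16 in R 4.3.3, with TMM scaling, filterByExpr (minimum count 10, minimum total 15), 1 coefficient a group, no block and Benjamini-Hochberg adjustment. The spread is therefore shared over 4 groups (4 residual degrees of freedom), although the groups differ in it. A mean quality weight of 0.64 for the knockout at 37 °C and of 1.38 for wild type at 37 °C came from limma 3.58.1.

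The SE is the absolute log2 fold change over the square root of F. Lists are described by counts and medians without a set test. The comparison, members and gene lists were chosen with earlier results of these data known. Genes are named by size (12 largest rises and falls at 37 °C with a mean of at least 10 CPM and no overlap of the groups, 6 largest temperature differences each way, up to 3 members a list each way) or by their role. On simulated data for this comparison, 82 of 100 genes changed 1.5-fold and 99 of 100 changed 2-fold were recovered. Of the 5621 genes tested there, changed ones included, 8 unchanged genes were called. The simulation gave all groups the same spread and changed only those few genes. Its rates therefore need not hold here, where the knockout libraries at 37 °C vary more and most genes are called. Near-identical genes were found with blastn 2.17.0. Upstream stretches were read from the R64 genome of RefSeq, and the promoters printed were picked after their motifs were counted. Floors cover counting error alone, whereas the SE also takes in the spread between replicates. Alternatives included DESeq2 1.42.0. Genome sequencing was not used here.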

Additional observations from a re-analysis of the deposited data

Results flagged for a closer look

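The effect of the knockout differed between 37 and 30 °C, by the test of the difference itself, for 1902 genes. Where the 8 libraries averaged 10 CPM or more, the most negative differences in log2 fold change were -5.55 for PHO89, -3.91 for PHO12, -2.98 for SPL2, -2.20 for DSE4, -2.19 for CAR2 and -2.07 for MMP1. The most positive were 4.55 for EGO4, 4.40 for PIR3, 4.11 for HSP30, 4.09 for RGI1, 4.03 for HSP26 and 3.84 for GLC3.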

How the results depend on the processing

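At 37 °C the count of 3387 genes (1731 higher, 1656 lower) became 2680 with DESeq2, 3146 in the 4 libraries alone, 3270 with quality weights by group and 2740 to 3451 when each library was left out. A test against a 1.5-fold change gave 724 genes (549 higher, 175 lower). At 30 °C the count of 1680 became 1075 with DESeq2, 520 of them lower, 88 against a 1.5-fold change (54 higher, 34 lower), and 972 to 2164 when each library was left out (482 to 1063 higher, 487 to 1101 lower), with 972 and 1005 without wild type replicates 1 and 2 at 30 °C and 1087 without knockout replicate 2 there. The temperature difference, with 1902 genes, gave 1359 with DESeq2, 559 of them positive, 285 against a 1.5-fold change (212 positive, 73 negative), and 604 negative with library size alone, which shifts all genes. The cause of these moves was otherwise not tested. Same-numbered libraries of wild type and knockout at 37 °C deviated with a correlation of -0.11 across genes. Between the knockout groups at 30 and 37 °C the correlation was 0.17. With 2 libraries a group, such values cannot decide whether the numbers pair the libraries. A replicate block gave 3409 genes, or 3059 within the 4 libraries at 37 °C, and the crossed pairing, added after the data were seen, gave 3435 there. A group left with 1 library is assumed to vary like the others. No gene called in the comparison at 37 °C changed sign in any alternative run. HXT2, not called, was called without either knockout library, at 0.57 without replicate 1 and -0.72 without replicate 2. Depth limits genes near 3 counts a library, as for the alpha cell markers.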
